A study of Homo sapiens with 14 samples.

Results

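Molecular chaperones of the heat shock and endoplasmic reticulum (ER) families were followed across the RNA-seq libraries of Kasumi-1 cells. Members were the genes named HSPA, HSP90, HSPB, HSPH, HSPD, HSPE, DNAJ, CCT2 to CCT8 or PDIA, together with HERPUD1, XBP1, SDF2L1, CRELD2, MANF, HYOU1, CALR, CANX, SEL1L, SYVN1 and EDEM1. The names gave 82 members of the 16604 genes in either table: 36 of the cytosol, 28 of the ER, 7 of mitochondria and 11 of other or unassigned sites. Both tables held 78 of them; HSPA6 was in the RB98# table alone, and DNAJB7, HSPB6 and DNAJC28 in the knockdown table alone. Matching names that ended in P and a number, and pseudogenes, were left out (17 genes), which also removed the protein-coding HSPBP1 and HSPBAP1. The filter on low counts kept 80 members in the knockdown experiment, all of its members but HSPB6, and all 79 members in the RB98# experiment.

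Hsp70 proteins bind and release unfolded stretches of other proteins in a cycle driven by ATP. J proteins (the DNAJ genes) deliver clients and start the ATP hydrolysis, while Hsp110 proteins exchange the nucleotide; Hsp90 and the ring-shaped CCT chaperonin act on partly folded proteins. The ER has its own set, in which the Hsp70 HSPA5 (BiP), the Hsp90 HSP90B1 and the lectins CALR and CANX work beside disulfide isomerases (PDIA genes), and proteins that fail to fold are sent to the cytosol for degradation (ERAD). Excess unfolded protein raises the cytosolic set through the factor HSF1, and the ER set through the unfolded protein response, whose factors include XBP1, ATF6 and ATF4.

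Kasumi-1 is a line of leukemic myeloblasts with the 8;21 translocation. For the knockdown, lentivirus brought in a scrambled shRNA (shCtrl, n = 3) or an shRNA against the RNA-binding protein RBPMS (shRBPMS, n = 3) for 48 h, and puromycin selected the cells for 48 h. DMSO (n = 2) was compared with RB98# (n = 2) in a separate experiment; RB98# is a code name for a compound, and its dose and exposure time are not in the labels. Nothing says that replicates came from separate cultures, so p-values may measure technical spread only, and in these bulk samples fewer cells of a type and less RNA per cell cannot be told apart.

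The knockdown libraries held 24.03 to 34.38 M counts and the RB98# experiment 13.85 to 15.35 M. By their numbering, library labels set replicate 1 of each knockdown group (set 1 here) apart from replicates 2 and 3 (set 2). The labels do not say what a set stands for, or whether replicates 2 and 3 share a source. Mitochondrially encoded genes took 15.24% (shCtrl) and 13.22% (shRBPMS) of counts in set 1 and 6.2% to 6.95% in set 2, and replicates 2 and 3 lay far closer to each other (chi-square per degree of freedom 3.005 and 3.025) than replicate 1 to replicate 2 (194.5 and 133.3). RBPMS was at 11.7 ± 7.56 CPM (counts scaled to library size with TMM factors; mean ± SD, n = 3) in shCtrl and 2.98 ± 0.413 CPM in shRBPMS. By library it was at 20.4, 7.24 and 7.39 CPM in shCtrl replicates 1, 2 and 3 and at 2.53, 3.34 and 3.08 CPM in shRBPMS. Its log2 ratio of shRBPMS over shCtrl was -3.01 in set 1, where shCtrl was highest, and -1.19 in set 2. In edgeR's quasi-likelihood test RBPMS was not called with group alone as the design (-1.96, adjusted p = 0.0846). With the replicate number as a block it was called lower (-1.79, adjusted p = 0.0106). All 6 myeloblast markers were present, MPO at a mean of 14740 CPM in shCtrl and 13012 CPM in DMSO. CD33 was called higher after the knockdown (15.3 to 50.0 CPM), and the others were not called with group alone as the design. With the block CD33 was called higher as well (1.69) and RUNX1T1 lower (-0.68), while MPO, KIT, CD34 and ELANE were not called. With RB98# CD33 (log2 change -0.84), KIT (-0.40) and CD34 (-0.37) were called lower, and MPO (0.22), ELANE (0.18) and RUNX1T1 (0.37) higher. Of 11 markers of lymphoid, erythroid and stromal cells, 5 had a value in the knockdown experiment, and their sum was 456, 135 and 141 CPM in shCtrl and 174, 89.8 and 85.9 CPM in shRBPMS. PECAM1 made up most of that sum, at 404.1, 96.56 and 102.7 CPM in shCtrl and 104.7, 48.23 and 45.67 CPM in shRBPMS. The means of EPCAM (31.36 to 46.08 CPM) and CD79A were higher in shRBPMS. PECAM1, EPCAM and CD79A were not called with group alone as the design. With the block PECAM1 was called lower (-1.38) and EPCAM higher (0.52), and CD79A was not called. CD3D and CD3E, T cell genes at low levels, were called lower after the knockdown (8.46 to 2.24 and 1.31 to 0.151 CPM). Any part of T cells or other such cells in the results was not tested. With RB98# 4 of the 11 had a value and none was called, with sums of 132 to 151 CPM.

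Per length of exon, CALR, the lectin chaperone of the ER lumen, had the highest level of all members in both controls, at 1235 CPM per kb in shCtrl and 1311 CPM per kb in DMSO. HSP90AB1, the constitutive cytosolic Hsp90, followed with 788 and 948 CPM per kb. HSP90AA1, its inducible relative, stood at 454 and 559 CPM per kb, HSPA8, the constitutive Hsp70, at 369 and 714 CPM per kb, HSP90B1 at 376 and 543 CPM per kb, and HSPA5 at 224 and 324 CPM per kb. The mitochondrial chaperonin HSPD1 had 193 and 257 CPM per kb. The lowest levels were those of DNAJB7 in shCtrl (0.193 CPM per kb) and HSPA6 in DMSO (0.559 CPM per kb). The tables were scaled apart and levels across them were not tested. With that limit, the stress-inducible HSPA1A was at 58.4, 53.7 and 45.2 CPM in shCtrl against 640 and 600 CPM in DMSO, and its near-identical copy HSPA1B at 32.9, 24.2 and 22.2 CPM against 324 and 309 CPM. Reads of HSPA1A and HSPA1B can be shared out between them, so the value of each alone is uncertain.

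Promoters were searched for the elements through which these genes are known to be induced. In RefSeq (GRCh38.p14), 75 members matched a promoter, of which the 250 bases before the start were searched on both strands. The ER stress response element, searched as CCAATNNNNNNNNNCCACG, was found in 6 of 26 ER members (CRELD2, XBP1, CALR, CANX, HSPA5 and HSP90B1) and in no other member, against 0.074% of 35116 promoters. The second ER element (ERSE-II) was in 3 of 26 ER members (HERPUD1, SDF2L1 and HYOU1) and no other member, against 0.051%. The heat shock element GAANNTTCNNGAA was in 3 of 32 cytosol members (HSPA6, HSPA8 and DNAJB6) and no member elsewhere, against 0.441%. A match is a run of letters and not a measured binding site. Only exact letters before a single start per gene were searched. A member without a match may therefore still hold a variant of an element, or one elsewhere. The promoters of the members that the results below turn on are shown 5′ to 3′ on the strand of the gene, with matches in capitals. The first ER element stood in HSPA5 (chr9:125241344-125241593, minus strand) and in 2 copies in HSP90B1 (chr12:103930160-103930409, plus strand), and the second in 2 copies in HYOU1 (chr11:119057206-119057455, minus strand) and in HERPUD1 (chr16:56931892-56932141, plus strand). The heat shock element stood in 2 copies in HSPA8 (chr11:123062137-123062386, minus strand) and in DNAJB6 (chr7:157336754-157337003, plus strand).
HSPA5: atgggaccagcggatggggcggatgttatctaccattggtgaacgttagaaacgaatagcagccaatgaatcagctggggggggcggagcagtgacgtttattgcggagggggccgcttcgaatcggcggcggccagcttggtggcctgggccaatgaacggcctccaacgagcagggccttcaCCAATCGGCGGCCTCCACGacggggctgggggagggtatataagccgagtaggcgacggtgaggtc
HSP90B1: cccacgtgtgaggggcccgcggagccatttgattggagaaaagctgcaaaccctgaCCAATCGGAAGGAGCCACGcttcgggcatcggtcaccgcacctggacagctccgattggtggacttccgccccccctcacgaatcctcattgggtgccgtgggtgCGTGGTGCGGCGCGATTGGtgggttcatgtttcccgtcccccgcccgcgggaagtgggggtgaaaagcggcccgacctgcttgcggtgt
HYOU1: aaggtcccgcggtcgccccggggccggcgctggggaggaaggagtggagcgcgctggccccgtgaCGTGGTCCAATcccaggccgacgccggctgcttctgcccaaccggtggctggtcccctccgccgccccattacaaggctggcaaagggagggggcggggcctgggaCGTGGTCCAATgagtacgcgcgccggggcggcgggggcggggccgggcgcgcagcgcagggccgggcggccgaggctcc
HERPUD1: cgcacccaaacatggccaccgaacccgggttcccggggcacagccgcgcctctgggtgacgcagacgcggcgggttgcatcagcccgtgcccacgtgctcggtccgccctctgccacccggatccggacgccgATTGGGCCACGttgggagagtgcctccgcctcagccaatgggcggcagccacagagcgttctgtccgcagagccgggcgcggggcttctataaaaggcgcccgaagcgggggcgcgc
HSPA8: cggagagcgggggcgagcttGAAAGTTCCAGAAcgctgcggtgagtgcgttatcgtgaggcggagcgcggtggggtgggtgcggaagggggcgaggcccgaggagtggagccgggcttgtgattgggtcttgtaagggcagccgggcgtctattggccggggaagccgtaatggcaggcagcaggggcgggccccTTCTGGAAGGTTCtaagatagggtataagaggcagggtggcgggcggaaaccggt
DNAJB6: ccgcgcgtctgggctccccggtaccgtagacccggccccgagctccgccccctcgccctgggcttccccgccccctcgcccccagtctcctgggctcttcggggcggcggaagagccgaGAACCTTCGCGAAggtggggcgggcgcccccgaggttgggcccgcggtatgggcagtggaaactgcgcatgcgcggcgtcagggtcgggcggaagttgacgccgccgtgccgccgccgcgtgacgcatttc

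The chaperones did not differ one way between shRBPMS and shCtrl in both sets: 24 of 28 ER and 22 of 34 cytosol members were higher in shRBPMS in set 1, and 19 of 28 and 24 of 34 were lower in set 2. HSPA5, the ER Hsp70 and master regulator of the unfolded protein response, stood at 767, 938 and 915 CPM in shCtrl replicates 1, 2 and 3 and at 1622, 789 and 768 CPM in shRBPMS. Its highest library was shRBPMS replicate 1, and replicates 2 and 3 of shRBPMS lay below their shCtrl counterparts, so the groups overlapped. The difference of the log2 effects, set 2 minus set 1, was -1.33 (SE 0.06, adjusted p = 3.62e-14 in edgeR's quasi-likelihood test of the interaction), from 1.08 in set 1 to -0.25 in set 2. HERPUD1, an ER membrane protein of ERAD, had 29.3, 30.9 and 27.0 CPM in shCtrl and 55.1, 26.1 and 22.8 CPM in shRBPMS; its shRBPMS library of set 1 was again the highest and those of set 2 the lowest (-1.15, SE 0.14, adjusted p = 1.14e-06). CALR had 2760, 3682 and 3616 CPM in shCtrl and 3955, 3355 and 3205 CPM in shRBPMS (-0.67, SE 0.05). For CALR the shCtrl library of set 1 was the lowest of all 6 and the shRBPMS library of set 1 the highest.

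Of 80 members tested, the effect was lower in set 2 than in set 1 for 32 and higher for 2, beside 9.01% of all 16215 genes lower and 8.25% higher (17.3% called in all). The ER gave 16 lower and 2 higher of 28, the cytosol 14 and 0 of 34, mitochondria 2 and 0 of 7, and other sites 0 of 11. The median log2 ratio of ER members was 0.36 in set 1 and -0.18 in set 2, that of cytosol members 0.16 and -0.12, and that of all genes 0.04 and 0.01. Of the 8 CCT genes (CCT2 to CCT8, with CCT6A and CCT6B counted apart), 2 were higher and 6 lower in set 1. The 2 were CCT7 and CCT6B, the latter at only 1.07 CPM in shCtrl and 2.49 CPM in shRBPMS. A member was higher in set 1 and lower in set 2 in 37.5% of the 80, beside 14.13% of all genes tested. Set 1 has 1 library per group, so the spread in this test comes from replicates 2 and 3 alone and the lone libraries are assumed to vary as those do. The mitochondrial share, the RBPMS level in shCtrl and the RBPMS ratio differed between the sets as given above. Their part in these results was not tested.

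**Figure D1:**
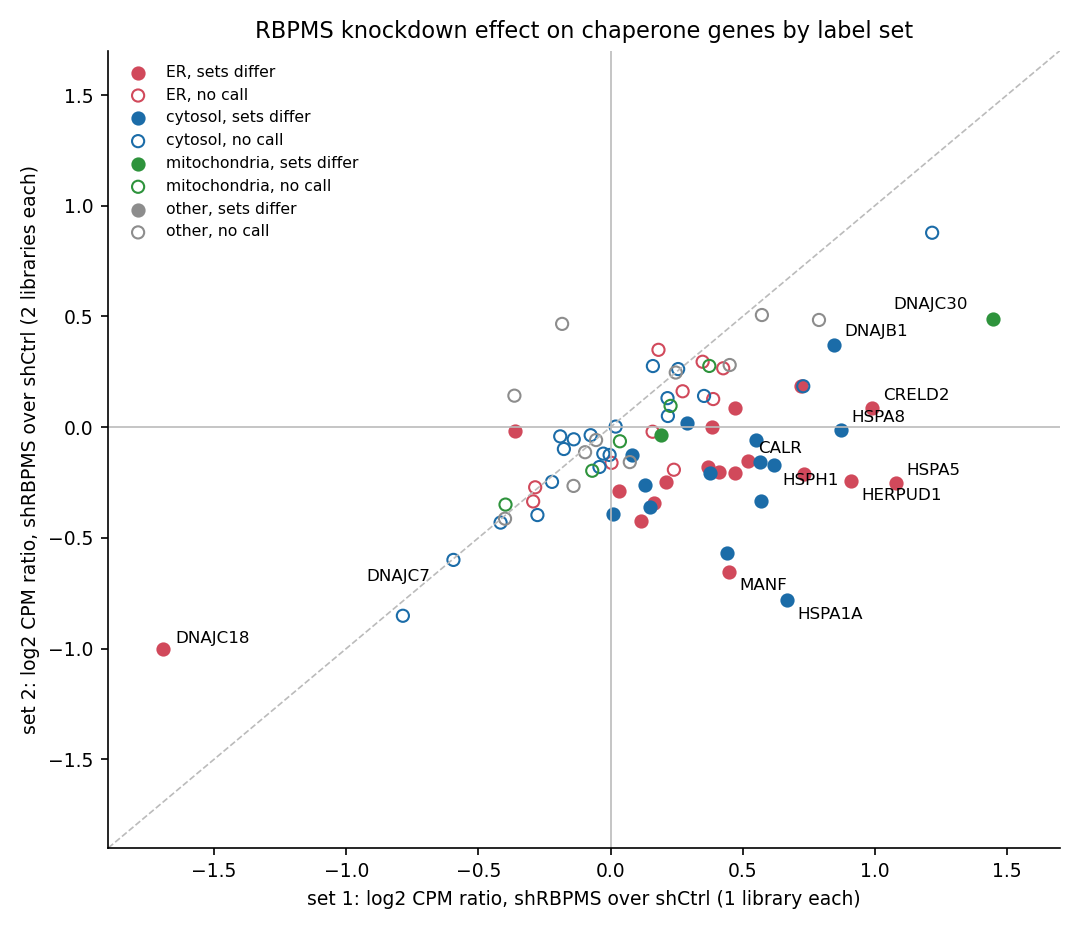
Each point is 1 of 80 chaperone genes, with the log2 CPM ratio of shRBPMS over shCtrl in set 1 (x axis, 1 library each) against set 2 (y axis, 2 libraries each). Filled points differ between the sets at an adjusted p under 0.05, colours give the compartment, and the dashed line marks equal ratios. HSPA5, HERPUD1, HSPH1 and HSPA1A lie to the right of 0 in set 1 and below 0 in set 2, while DNAJC7 lies on the dashed line.

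Within the ER, the groups by role did not all part alike between the sets. All 4 disulfide isomerases were called lower in set 2 than in set 1, among them PDIA4 (-0.61, SE 0.06), at 339, 413 and 409 CPM in shCtrl and 451, 360 and 355 CPM in shRBPMS. Both lectins were called, CALR as above and CANX, the membrane-bound partner of CALR (-0.32, SE 0.06, adjusted p = 0.000185). Of the lumenal Hsp70, Hsp90 and Hsp110 proteins 3 of 4 were called, HSPA5, HSP90B1 (-0.46, SE 0.06) and HYOU1, the ER Hsp110 (-0.51, SE 0.06); HSPA13, a short ER Hsp70, had 0.01. MANF and CRELD2, secreted proteins of the unfolded protein response, had -1.10 and -0.91, and SDF2L1, a partner of HSPA5, had -0.94; all were called. PDIA4, MANF, CRELD2, XBP1, DNAJB11 and DNAJB14 are members that the rule for genes to name in the text, given below, did not pick. They were picked out here after their values were seen. XBP1 itself was not called (-0.04, adjusted p = 0.745). The ER J proteins gave 2 lower, DNAJC3 (-0.53), which recruits HSPA5 and restrains the kinase PERK, and DNAJB11 (-0.68), and 2 higher, DNAJC18 (0.69) and DNAJB14 (0.34), both of the ER membrane; the other 6 were not called.

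In the cytosol, 4 of 7 Hsp70 genes, both Hsp90 genes and 1 of 3 Hsp110 genes were called lower in set 2. HSPA8 had 2282, 1618 and 1469 CPM in shCtrl and 4175, 1463 and 1595 CPM in shRBPMS (-0.89, SE 0.07, adjusted p = 1.56e-09); the shRBPMS library of set 1 stood far above the other 5. HSP90AA1 had 2176, 2528 and 2438 CPM in shCtrl and 2829, 2179 and 2117 CPM in shRBPMS (-0.59, SE 0.05), and HSP90AB1 differed by -0.39 (SE 0.05). HSPH1, the cytosolic Hsp110, was at 313, 246 and 234 CPM in shCtrl and 481, 210 and 217 CPM in shRBPMS (-0.79, SE 0.07). HSPA1A (-1.45, SE 0.13) had the largest fitted difference of all members, with 92.9, 25.6 and 31.9 CPM in shRBPMS, and HSPA1B had -0.90 (SE 0.14). HSPH1, HSPA1A and CCT7 are members that the rule for genes to name in the text did not pick, and were chosen with their values known. Of the 13 cytosolic J proteins 5 were called, among them DNAJB1, the main J partner of HSPA1A and HSPA8 (-0.47, SE 0.09), and DNAJB6, which keeps proteins from aggregating (-0.51, SE 0.08). Of the 8 CCT genes only CCT7 was called (-0.21, SE 0.06).

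The matches in promoters can be set beside these values as a description. HSPA5, HSP90B1, HYOU1 and HERPUD1, whose promoters are shown above, were all called lower in set 2, as were SDF2L1, CALR, CANX and CRELD2. XBP1 was the ER member with a match that was not. In all, 8 of 9 ER members with a match were called lower in set 2, as were 7 of 17 without one. Over all genes tested 9.01% were called lower in set 2, so both shares were above that of all genes. HSPA8 and DNAJB6, with the heat shock element, were called too, as were 12 of 28 cytosol members without it, and HSPA6 was not in that table. HSPA1A, HSPA1B, HSPH1, HSP90AA1 and DNAJB1 were among the called cytosol members without an exact match. A member counted as without a match may still hold an element, so the shares do not part genes with an element from genes without. These shares were not tested.

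Of the mitochondrial chaperones 2 of 7 differed between the sets, HSPD1 and DNAJC30. HSPD1 (Hsp60) differed by -0.22 (SE 0.06, adjusted p = 0.00716), with 645, 915 and 898 CPM in shCtrl and 735, 898 and 872 CPM in shRBPMS. HSPE1, the Hsp10 lid of that chaperonin, was at 38.1, 96.6 and 101 CPM in shCtrl and 36.3, 85.6 and 86.5 CPM in shRBPMS. Here both libraries of set 1 were low whatever the shRNA, and the effect did not differ between sets past the threshold (-0.13, adjusted p = 0.376). HSPA9, the mitochondrial Hsp70, had -0.10 (adjusted p = 0.285). DNAJC30, a J protein of the organelle, differed by -0.96 (SE 0.28, adjusted p = 0.0195) at levels of 2.81 to 7.66 CPM.

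**Figure D2:**
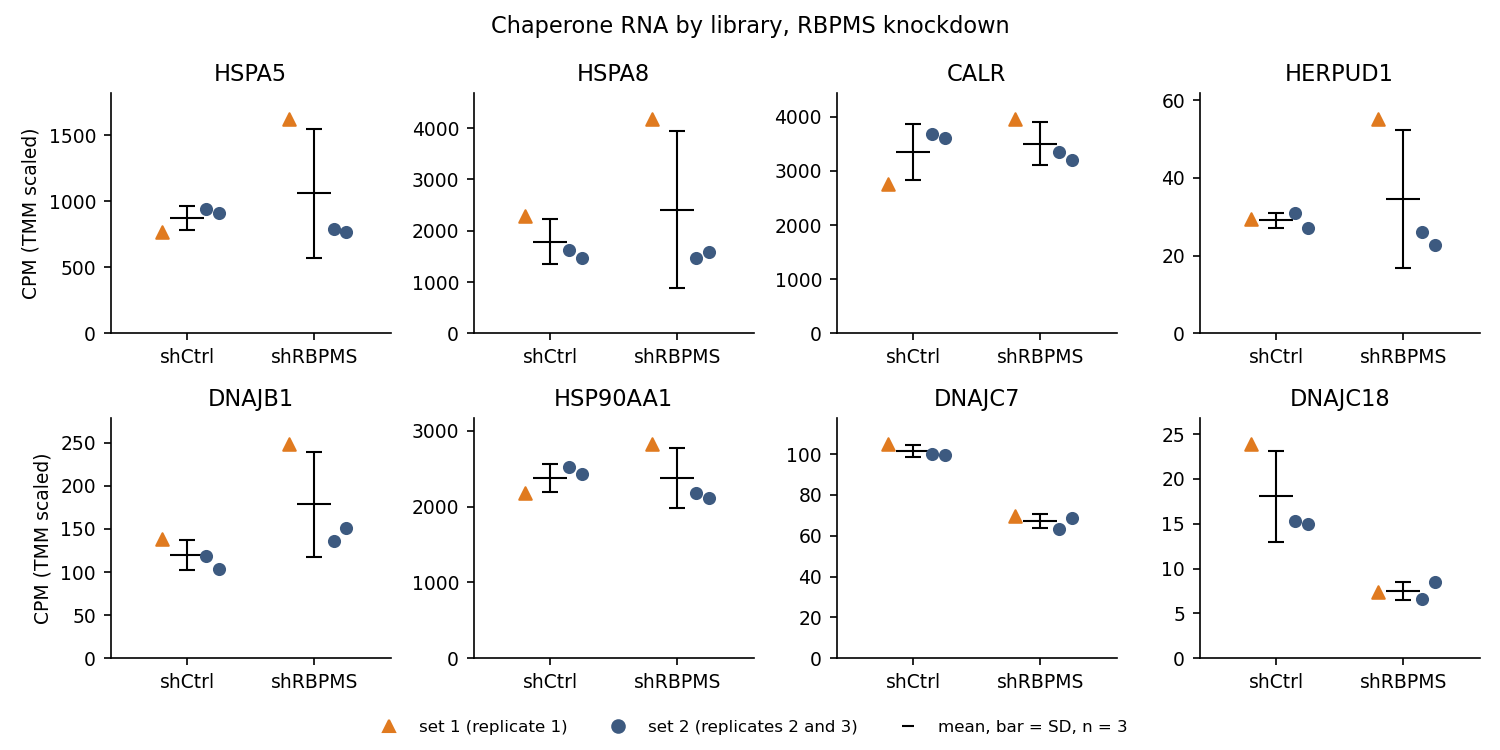
CPM of 8 chaperone genes (y axis, from 0) in each library of the knockdown experiment by group (x axis). Triangles are set 1, circles set 2, and the horizontal bar with whiskers is the mean ± SD of 3 libraries. For HSPA5, HSPA8, CALR and HERPUD1 the shRBPMS triangle stands above the other libraries, and for DNAJC7 and DNAJC18 all shRBPMS libraries lie below all shCtrl libraries.

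Over all 6 libraries with a design of group alone, 0 of 80 members passed an adjusted p of 0.05 in edgeR, beside 1.97% of all genes (0.629% higher, 1.34% lower). At an unadjusted p under 0.05 there were 11 of 80 members and 2733 of 16215 genes. DESeq2 called 3 members higher and 4 lower, beside 3.21% and 5.09% of all genes (8.3% called). Same-numbered libraries deviated together, as did replicates 2 and 3 across numbers, and when each number was a block 12 members rose and 11 fell, beside 13.3% and 14.8% of all genes (28.1% called). The median log2 change of members was -0.01 with the block and 0.02 over all genes. In the blocked fit 3 cytosol members rose and 5 fell of 34, 3 and 3 of 28 in the ER, 2 and 1 of 7 in mitochondria, and 4 and 2 of 11 at other sites. In set 2 alone, an analysis added with the data in view, 14 members were higher and 39 lower of 81 tested, beside 20.5% and 21.7% of all genes (42.2% called); of ER members it called 5 higher and 16 lower. The authors' deposited table has 0 of 81 members higher and 2 lower, DNAJC7 and DNAJC18, beside 4.74% and 6.6% of all its genes (11.3% called). Groups did not overlap for 16 of 80 members, beside 25.9% of all genes.

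DNAJC7, whose tetratricopeptide repeats bind Hsp70 and Hsp90, was lower by a like amount in both sets. It lies on chromosome 17 from 41976433 to 42021376 (GRCh38). Its level was 105, 100.1 and 99.5 CPM in shCtrl and 69.5, 63.2 and 68.5 CPM in shRBPMS, with no overlap. The log2 change was -0.60 without the block (adjusted p = 0.0518) and -0.60 with it (SE 0.06, adjusted p = 0.00112), and the log2 ratio was -0.59 in set 1 and -0.60 in set 2. DNAJC18 (chromosome 5, 139408588 to 139444491) had 23.9, 15.3 and 14.9 CPM in shCtrl and 7.38, 6.57 and 8.51 CPM in shRBPMS. All shRBPMS libraries were lower, by -1.24 in the blocked fit (SE 0.17, adjusted p = 0.00291); the group alone gave -1.27 (adjusted p = 0.0530) and, without shCtrl replicate 1, -1.02 (adjusted p = 0.0459). DNAJB5, a cytosolic J protein, fell from 28.5 ± 1.03 to 21.2 ± 1.00 CPM (-0.43, SE 0.07), and HSPB11, a subunit of intraflagellar transport, from 27.5 ± 0.387 to 20.7 ± 0.436 CPM (-0.41, SE 0.08). CCT3, the gamma subunit of the CCT ring, fell by 0.36 on the log2 scale, and DNAJC19, of the mitochondrial import motor, by 0.37. All 3 shRBPMS libraries of DNAJB5, HSPB11 and CCT3 lay below all shCtrl libraries, while those of DNAJC19 overlapped.

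The members that rose with the block and are named here were J proteins and EDEM1. DNAJC30 went from 3.21 ± 0.363 to 5.75 ± 1.69 CPM (0.79, SE 0.23, adjusted p = 0.0381). DNAJC4 went from 10.0 ± 1.37 to 14.9 ± 1.29 CPM (0.58, SE 0.12) and DNAJC25 from 8.94 ± 0.331 to 12.9 ± 0.850 CPM (0.53, SE 0.10); both are membrane J proteins. The groups did not overlap for any of these. DNAJB1 had 138, 119 and 103 CPM in shCtrl and 249, 136 and 151 CPM in shRBPMS (0.53, SE 0.12, adjusted p = 0.0154). DNAJB1 rose in set 2 alone as well (0.38), so of the inducible cytosolic genes it was higher in shRBPMS in both sets. DNAJC13, an endosomal J protein, rose by 0.34, and EDEM1, a lectin that pulls misfolded glycoproteins out of the folding cycle, from 144 ± 14.9 to 180 ± 8.13 CPM (0.32, SE 0.06). When replicates 2 and 3 were added up and the sets fitted as a covariate, DNAJC13, EDEM1, CCT3, HSPB11 and DNAJC19 were not called, while DNAJC30, DNAJC4, DNAJC25, DNAJB1, DNAJC7, DNAJC18 and DNAJB5 were. Of the members named here that rose, none passed without the block, at adjusted p values between 0.121 and 0.521.

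With RB98# the J protein gene DNAJB4 and the ERAD genes HERPUD1 and EDEM1 were among the members that rose, and the Hsp70 genes HSPA8 and HSPA5 among those that fell. DNAJB4, a cytosolic J protein (chromosome 1, 77979175 to 78017964), went from 14.3 and 13.8 CPM with DMSO to 30.0 and 26.8 CPM with RB98# (log2 change 1.02, SE 0.12, adjusted p = 2.86e-07). It was the member with the largest rise, and both treated libraries were above both controls. HERPUD1 went from 24.4 and 29.8 to 47.9 and 38.2 CPM (0.67, SE 0.11, adjusted p = 5.17e-05), and EDEM1 from 124 and 123 to 177 and 166 CPM (0.47, SE 0.06, adjusted p = 2.85e-06). HSPA8 moved the other way, from 3544 and 3376 to 2977 and 3012 CPM (-0.21, SE 0.05, adjusted p = 0.00153), and so did HSPA5, from 1289 and 1240 to 1119 and 1103 CPM (-0.19, SE 0.05, adjusted p = 0.00544). For each of these the 2 groups did not overlap.

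Of 79 members tested, 11 rose and 12 fell, beside 20.5% and 17.3% of all 12324 genes (37.8% called). With library totals in place of TMM factors the split was 6 up and 21 down, beside 13.7% and 26.6% (40.3% called), and that scaling shifted the median of all genes by -0.10. Groups did not overlap for 48 of 79 members, beside 68.3% of all genes. In the ER 7 rose and 3 fell of 28 (median 0.08), in the cytosol 4 and 5 of 34 (median 0.00), in mitochondria 0 and 3 of 7 (median -0.22) and at other sites 0 and 1 of 10, against a median of 0.00 over all genes. The ER median turned to -0.02 with library totals. The authors' deposited table has 8 members higher and 9 lower of 79, beside 13.7% and 8.44% of all its genes (22.2% called). The counts also shifted when a single library was left out. Such a fit leaves 1 library in a group, and no share over all genes is given for it.

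**Figure D3:**
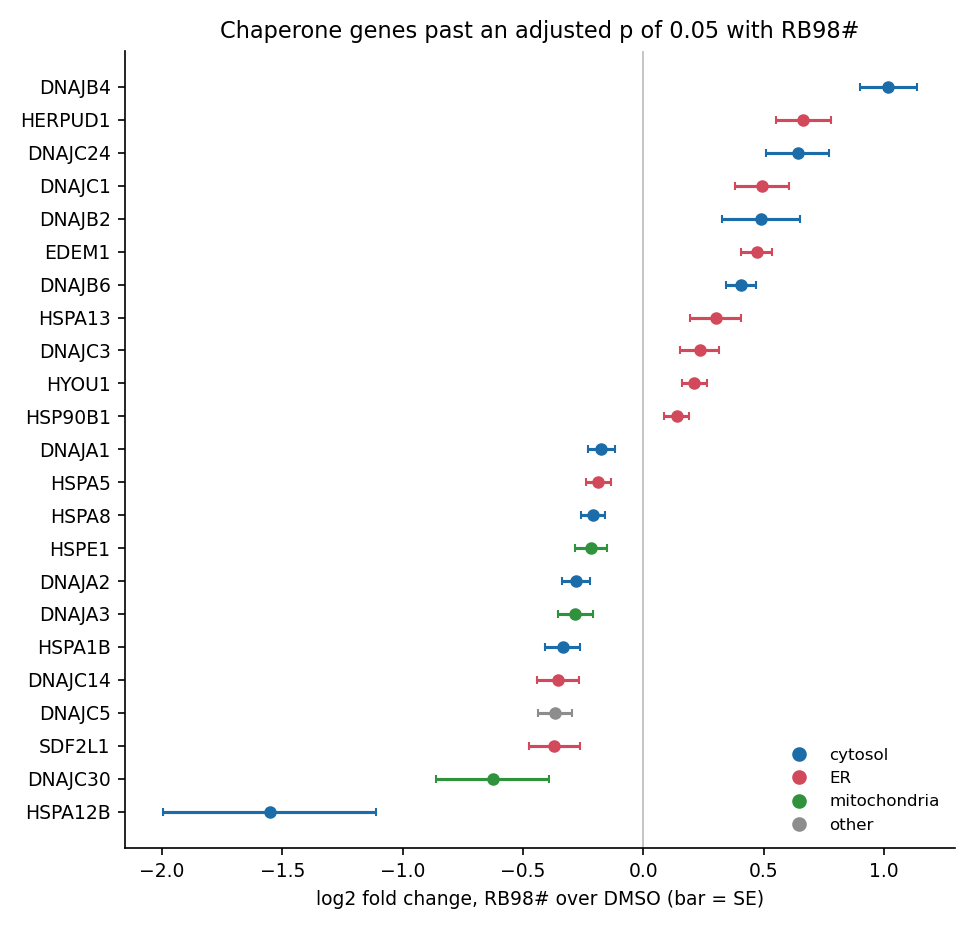
Log2 fold change of RB98# over DMSO (x axis, bar = SE) for the 23 chaperone genes past an adjusted p of 0.05, coloured by compartment. DNAJB4 is at the top with 1.02 and HSPA12B at the bottom with -1.55; ER genes take most of the places above 0, and mitochondrial genes lie below 0.

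Among the ER members, both ERAD components HERPUD1 and EDEM1 rose, whereas SEL1L and SYVN1, the scaffold and ligase of the channel through which misfolded proteins leave, had 0.09 and -0.09 and were not called. DNAJC1, a J protein of the ER membrane, went from 19.3 and 21.1 to 30.0 and 27.0 CPM (0.49, SE 0.11), and DNAJC3 rose by 0.23. HYOU1 rose from 491 and 478 to 556 and 566 CPM (0.21, SE 0.05), HSPA13 by 0.30 and HSP90B1 by 0.14 (adjusted p = 0.0342). With library totals the changes of HYOU1 (0.11), HSPA13 (0.20), DNAJC3 (0.13) and HSP90B1 (0.04) did not pass. SDF2L1 fell from 36.2 and 35.4 to 25.0 and 30.5 CPM (-0.37, SE 0.11), and DNAJC14 fell by 0.35. Thus HSPA5 and SDF2L1 were lower while HERPUD1, HYOU1 and HSP90B1 were higher; each has an ER element in the promoter window. None of the 4 disulfide isomerases or of the lectins was called, with changes between 0.05 and 0.11.

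Cytosolic J proteins changed both ways. DNAJC24, which serves diphthamide synthesis, rose by 0.64 (SE 0.13, 16.1 ± 2.58 to 25.0 ± 3.21 CPM), and DNAJB2, a J protein with ubiquitin-binding motifs, by 0.49 (SE 0.16, 7.63 ± 0.409 to 10.7 ± 0.578 CPM). DNAJB6 went from 169 and 176 to 241 and 216 CPM (0.41, SE 0.06, adjusted p = 2.08e-05). DNAJA2, which pairs with HSPA8, fell from 456 and 454 to 390 and 359 CPM (-0.28, SE 0.06). Thus HSPA8 and DNAJB6, which carry the heat shock element, went in opposite directions, and HSPA6, the third with it, had 0.956 and 1.69 CPM with DMSO and 2.05 and 2.32 CPM with RB98# (0.70, adjusted p = 0.158). HSPA1B fell by 0.33 (SE 0.07), while HSPA1A, with 640 and 600 CPM in DMSO and 626 and 623 CPM in RB98#, had 0.01; how reads of the copies were shared out is not known, so the value of each is uncertain. HSPA12B, a distant Hsp70 relative of endothelium, fell by 1.55 (SE 0.44) at levels of 1.90 ± 0.299 and 0.643 ± 0.0408 CPM. HSP90AA1 (0.06), HSP90AB1 (0.03) and all 8 CCT genes were not called.

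All called mitochondrial members fell. HSPE1 went from 274 and 260 to 213 and 247 CPM (-0.22, SE 0.07, adjusted p = 0.0112), DNAJA3, which works with HSPA9, from 94.4 ± 2.12 to 77.6 ± 3.35 CPM (-0.28, SE 0.07), and DNAJC30 from 6.76 and 7.72 to 3.34 and 6.12 CPM (-0.63, SE 0.23). HSPA9 itself was at 674 and 674 CPM with DMSO and 691 and 661 CPM with RB98# (0.00, adjusted p = 0.967), and HSPD1 had -0.09 (adjusted p = 0.162). DNAJC5, the J protein of secretory vesicles, fell from 117 and 112.2 to 90.9 and 86.8 CPM (-0.37, SE 0.07).

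Leaving out single libraries separated these calls. Among the named members DNAJB4, HERPUD1, DNAJC24, DNAJC1, EDEM1, DNAJB6, DNAJC5, DNAJA2 and HSPA1B passed whichever of the 4 libraries was left out. Without DMSO replicate 1 or without DMSO replicate 2 the calls of HSPA8 (-0.17 and -0.24), HSPA5 (-0.16 and -0.21), HSPE1 (-0.18 and -0.26), HYOU1 (0.23 and 0.19), HSP90B1 (0.13 and 0.15), HSPA13 (0.26 and 0.35), DNAJC3 (0.23 in each) and DNAJB2 (0.54 and 0.43) were lost. Without RB98# replicate 1 the changes of DNAJC30 (-0.26), SDF2L1 (-0.24), HSPA13 (0.20), DNAJC3 (0.07) and HSP90B1 (0.07) did not pass. Such a fit has 3 libraries and takes the lone one to vary as the pair of the other group does.

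**Figure D4:**
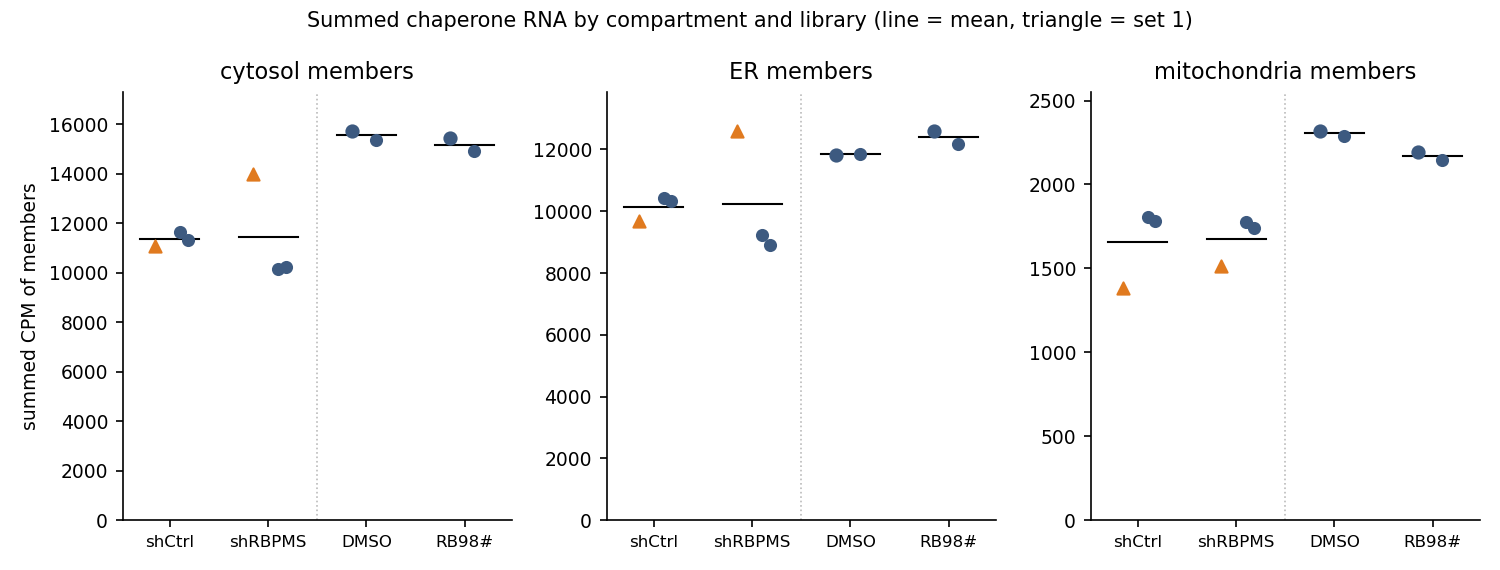
Summed CPM of the cytosol, ER and mitochondria members (y axis, from 0) in each library of the 4 groups (x axis); lines are group means and triangles are set 1. In the cytosol and ER panels the shRBPMS library of set 1 stands highest of the knockdown experiment, and the dotted line parts the 2 experiments, which were scaled apart.

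Summed over members, ER chaperone RNA was 9668, 10419 and 10325 CPM in shCtrl and 12599, 9231 and 8894 CPM in shRBPMS. The cytosol sum was 11086, 11652 and 11313 CPM in shCtrl and 13988, 10136 and 10247 CPM in shRBPMS. In both compartments the shRBPMS library of set 1 was above every shCtrl library and those of set 2 were below all of them. With RB98# the ER sum was 12596 and 12191 CPM against 11815 and 11864 CPM with DMSO, while the mitochondrial sum was 2194 and 2147 CPM against 2319 and 2290 CPM. The few most abundant members dominate these sums, which were not tested.

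Whether a member responded differently to RB98# and to the knockdown was tested in a fit of all 10 libraries. Of 78 members 2 differed, beside 8.15% of 12126 genes (4.79% higher, 3.36% lower). DNAJC7 fell after the knockdown and had -0.03 with RB98# (difference 0.55, SE 0.13, adjusted p = 0.0412), and DNAJC25 rose after the knockdown and had -0.34 with RB98# (difference -0.89, SE 0.20, adjusted p = 0.0341). Both calls were lost without shCtrl replicate 2 or 3, without shRBPMS replicate 2 or 3, and without any one library of the RB98# experiment, where the count was 0 each time; the count was 4 without shCtrl replicate 1 and 7 without shRBPMS replicate 1, and a covariate for the label set gave 22 members, beside 44.9% of all genes. EDEM1 was called higher in both experiments, by 0.32 in the blocked knockdown fit and 0.47 with RB98#, whereas DNAJC30 was called in opposite directions, at 0.79 and -0.63, and the difference of its effects was -1.46 (adjusted p = 0.0697).

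**Figure D5:**
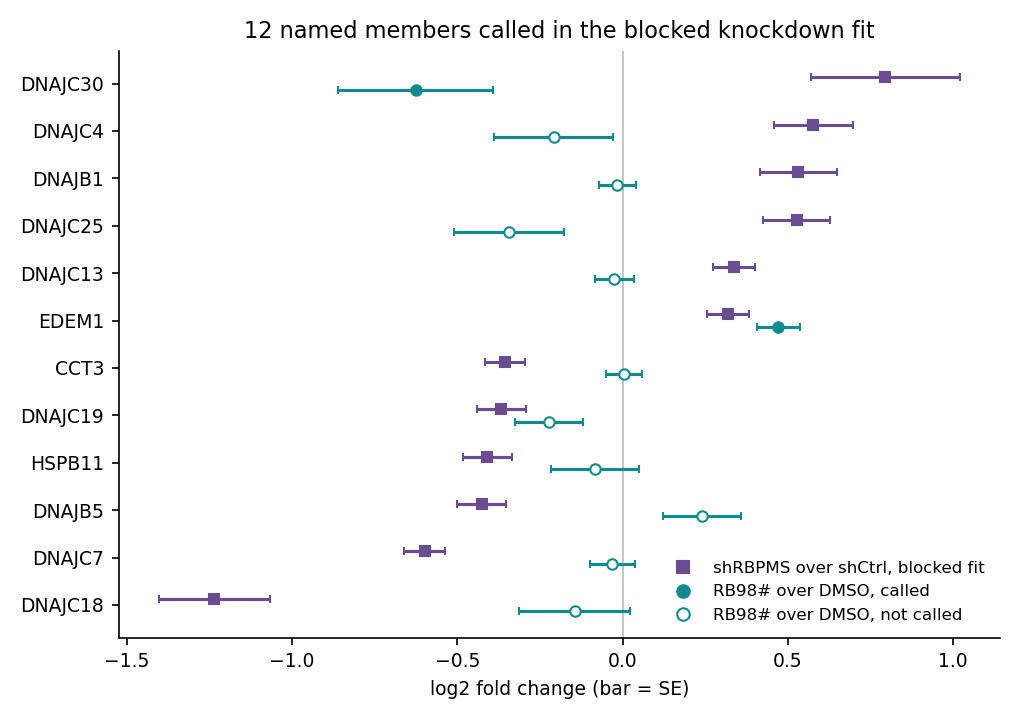
Log2 fold change (x axis, bar = SE) of the 12 named members called in the blocked knockdown fit, as squares, with the change of the same gene with RB98# as circles, filled where called. EDEM1 lies above 0 in both, DNAJC30 lies on opposite sides, and the RB98# circles of DNAJC7 and DNAJB1 lie near 0.

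Other genes of these pathways were counted from lists that hold no member. Of 35 further genes of ER folding, stress sensing and ERAD, 12 rose and 2 fell with RB98#, beside 20.5% and 17.3% of all genes. PPP1R15A, which reverses the translation block of ER stress, rose from a mean of 19.0 to 60.0 CPM (n = 2 each; 1.66, SE 0.10). ATF4, the transcription factor of the PERK branch, rose from 252 ± 9.08 to 454 ± 13.5 CPM (0.85, SE 0.06), and DDIT3 (CHOP), a target of it, rose by 0.84. The falls were DERL3, a channel protein of ERAD (-0.96), and SERPINH1, the collagen chaperone (-0.54). Of 34 tested after the knockdown 6 rose and 5 fell with the block, beside 13.3% and 14.8% of all genes, and 1 and 1 without it. ERO1A, the oxidase that recharges disulfide isomerases, rose from 65.5 ± 4.78 to 128 ± 10.8 CPM (0.97 in both fits, adjusted p = 0.0258 without the block). TXNDC5, a lumenal disulfide isomerase outside the PDIA names, fell from 32.0 ± 6.11 to 14.1 ± 0.826 CPM (-1.18, adjusted p = 0.0338 without the block). In the other experiment, which was scaled apart, TXNDC5 stood at 409 CPM with DMSO and 403 CPM with RB98#. The reason for that gap was not tested, so its level in the knockdown experiment is uncertain. With the block EDEM3 (0.70) and EDEM2 (0.62) rose as EDEM1 did, and MBTPS2 (-0.70), which cleaves ATF6, and SERP1 (-0.51) fell.

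Of 26 partners of the cytosolic chaperones 2 rose and 5 fell with RB98#, and 4 rose and 4 fell in the blocked knockdown fit; over all genes the shares were 20.5% and 17.3%, and 13.3% and 14.8%. HSF1, the heat shock factor, rose from 82.1 ± 5.96 to 106 ± 2.91 CPM with RB98# (0.37, SE 0.07) and by 0.22 in the blocked knockdown fit (adjusted p = 0.0471). The Hsp70 cochaperone ST13 rose with RB98# (0.16), and BAG1 (-0.50) and BAG2 (-0.38), exchange factors of Hsp70, and TTC4 (-0.35), a cochaperone of Hsp90, fell. After the knockdown the Hsp70 ligase STUB1 (0.42) and the Hsp90 cochaperone CDC37 (0.34) rose with the block, and HSF2 (-0.57), BAG5 (-0.43) and FKBP5 (-0.39) fell. Of 14 further mitochondrial folding and quality control genes 2 rose and 2 fell with RB98#. CLPB, a disaggregase, and GRPEL2, an exchange factor of HSPA9, rose by 0.38 and 0.54, and GRPEL1 (-0.45), the main exchange factor, and CLPX (-0.27), of a mitochondrial protease, fell. In the blocked knockdown fit 4 rose and 1 fell, with CLPB (0.59), TIMM44 (0.36) and TRAP1 (0.28) up and GRPEL2 (-0.31) down.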

How the data were processed

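The values used are raw counts per Ensembl gene and library that the authors deposited, whole numbers per the file headers and the values. Tools listed in the submitters' processing notes are HISAT2 2.2.1, fastp 0.22.0, StringTie, DESeq2 1.32.0 and featureCounts 2.0.1, with build hg38/GRCh38 and no order; whether counting used strand is not given in the sources used here. The authors' deposited log2 fold changes and adjusted p-values are quoted where named. From the table of the RB98# experiment 112 repeated lines were dropped, and 10 further columns with values per sample were not used. The series lists 14 samples, of which 4 (RNA immunoprecipitation and m6A) were not analysed here. Members, lists and tests were chosen with earlier results of these data known.

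Counts were tested with edgeR 4.0.16 (R 4.3.3; quasi-likelihood F test, two-sided, TMM factors, filterByExpr with a count of 10 and a total of 15, Benjamini-Hochberg adjustment over all genes, threshold 0.05), each experiment alone with group as the design. The interaction with the label set and the difference between experiments were contrasts of the same test. The SE is the log2 change over the square root of F. Scripts were tested on simulated data. DESeq2 1.42.0, library totals, no filter, the label set, summed replicates and left-out libraries were alternatives.

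By correlation above 0.1, same-numbered knockdown libraries count as paired (0.852, 0.773 and 0.801 over 10826 genes), but replicate 2 against 3 gave 0.776 and 0.768, so the shared deviation follows the label set; the RB98# value was -0.06. The blocked fit is therefore given beside each knockdown count. Named members are the 4 of highest mean CPM per compartment with HSPA9, HSPD1 and HSPE1, the called ones (10 per direction at most) and, with the block, 6 per direction whose average log2 CPM reached 2; pathway genes are the 3 of largest change per list, direction and experiment. Exon lengths and coordinates are from GENCODE on GRCh38 and promoters from RefSeq. More than 20% of exon length overlaps another gene in HSPA1B (36.5%), CCT5 (30.1%), PDIA6 (25.2%) and DNAJC14 (23.2%), among others, whose counts may hold reads of it.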

Additional observations from a re-analysis of the deposited data

Results flagged for a closer look

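Effects of the knockdown that differed between the label sets by the interaction test were looked at again for the named members, as log2 effect in set 2 minus set 1. In the ER these were HSPA5 (-1.33), HERPUD1 (-1.15), SDF2L1 (-0.94), CALR (-0.67), DNAJC3 (-0.53), HYOU1 (-0.51), HSP90B1 (-0.46), CANX (-0.32) and, with the larger fall in set 1, DNAJC18 (0.69). In the cytosol they were HSPA1B (-0.90), HSPA8 (-0.89), HSP90AA1 (-0.59), DNAJB6 (-0.51), DNAJB1 (-0.47) and HSP90AB1 (-0.39), and in mitochondria DNAJC30 (-0.96) and HSPD1 (-0.22). Set 1 holds 1 library of each group.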

How the results depend on the processing

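Knockdown counts (0 higher, 0 lower) were 12 and 11 with the replicate block, 14 and 12 with the label set as covariate, 6 and 3 with replicates 2 and 3 summed as well, 3 and 4 with DESeq2, 0 and 2 with library totals, 0 and 1 without the filter, and 14 and 39 in label set 2 alone (chosen after the data were seen). They ranged from 0 to 0 and from 0 to 1 with a library left out. In set 2 alone CALR (-0.15) and HSPA5 (-0.25) turned from higher to lower, and the ER median was -0.19; that median ranged from -0.14 (without shRBPMS replicate 1) to 0.079 over the left-out libraries. With RB98# (11 higher, 12 lower) the counts were 7 and 9 with DESeq2, 6 and 21 with library totals and 10 and 11 with the replicate block, and ranged from 6 to 16 and from 5 to 19 with a library left out. The RB98# medians with library totals were -0.10 (cytosol), -0.020 (ER) and -0.32 (mitochondria), and with a library left out they ranged from 0.031 to 0.082 (ER) and from -0.26 to -0.15 (mitochondria). Of 30 named members DESeq2 lost 7 RB98# calls, library totals 5 and the replicate block 1 (HSP90B1, 0.14, adjusted p = 0.150). The difference between experiments (2 members) was called for 22 with the label set as covariate, for 1 with library totals and for 0 to 7 with a library left out. The label set interaction (34 members) gave 37 with library totals and 33 to 36 with a set 2 library left out (added later); without a set 1 library it could not be fitted. The cause of these changes was not tested, and protein sequence features were not used here.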
